A study of Mus musculus with 6 samples.

Results

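The cell cycle genes described here are the D, E, A and B cyclins, the cyclin-dependent kinases (CDKs) 1, 2, 4 and 6, the CDK inhibitors, the replication licensing and helicase genes, and the kinetochore and mitosis genes of the embryonic mouse pancreas. The rule that picks them reads only gene symbols, although the set was proposed with earlier results of these data known, and 65 of the 23337 gene symbols in the count files matched. Of these, 62 had enough reads to be tested, and Ccna1, Cdkn2a and Cdkn2b did not. RNA was sequenced from pancreas of NMRI mouse embryos at E13.5, a stage when endocrine and acinar cells begin to form. The control group was 3 pools from wildtype embryos. The mutant group was 3 pools from Prox1-nullyzygous embryos (the term of the labels), whose genotype is Prox1 GFPCre/D. Each library came from a pool of 5 to 6 whole pancreata, so epithelium, mesenchyme, vessels and blood were measured together, and the labels do not say that pools came from separate litters. The p-values therefore measure the spread between these pools. Prox1 is a homeobox transcription factor gene, and what each allele removes from the locus is not stated in the labels.

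Cells enter the cell cycle when D-type cyclins bind Cdk4 and Cdk6 and E-type cyclins bind Cdk2, which inactivates the retinoblastoma proteins and frees E2F factors to switch on replication genes. The origin recognition complex and the Mcm helicase are loaded on DNA before S phase, Gins activates the helicase, and cyclin A and cyclin B with Cdk1 then drive the cell into mitosis. Inhibitors of the Cip/Kip and Ink4 families hold these kinases back. In the embryonic pancreas the progenitors divide while cells that switch on Neurog3 leave the cycle, and Cdkn1a is a known target of p53 in many tissues. In the lens, Prox1 is known to be required for the expression of Cdkn1b and Cdkn1c as fibre cells stop dividing.

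Among these genes, 2 D-type cyclins were higher and 1 CDK inhibitor was lower in mutants, while the machinery of DNA replication, the kinetochore and mitosis showed no called difference. Ccnd2 rose 1.39-fold, Ccnd3 rose 1.15-fold and Cdkn1a fell to 0.784 of its control level. A gene was called at a Benjamini-Hochberg adjusted p under 0.05 in edgeR's quasi-likelihood test, adjusted over all 14687 genes tested. By that rule 3 of the 62 tested cell cycle genes (4.84%) were called, against 7.95% of all genes tested. DESeq2 and limma voom called the same 3 genes and no other member. At an unadjusted p under 0.05 there were 9 of 62 (14.5%), against 21.1% of all genes. The 3 control and 3 mutant values did not overlap for 16 of 62 (25.8%), close to the 26.4% over all genes. By direction, the mutant pools lay above in 13 of 62 and below in 3 of 62. Over all 14687 genes tested these counts were 1917 (13.1%) and 1965 (13.4%). Of the 9 genes at the unadjusted threshold, 8 were higher and 1 lower, where all genes tested split into 1601 higher and 1503 lower. Over both directions the counts do not set these genes apart from the background. The split by direction was not tested, and the description below rests on the single genes.

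The measurements of the other 59 tested genes were narrow. The 95% interval of the fold change lay within 1.2-fold in either direction for 44 of the 59, and within 1.5-fold for 57. Only Ccnb3 and Cdkn2c, both scarce, had wider intervals. All these intervals assume normal errors and are narrower than the test implies. That of Mcm5, from -0.17 to -0.01 in log2 terms, leaves out 0 although edgeR gave an unadjusted p of 0.058. The median log2 fold change, mutant minus control, was 0.04 over the 62 genes and 0.00 over all genes tested. The median size without the sign was 0.05 against 0.09, and 0.05 against 0.07 where only genes with a mean of at least 10 CPM were kept. Beyond that minimum the sets were not matched in level. With total-count scaling the median was 0.01 over the 62 genes and -0.03 over all genes tested, so both moved down together. Without control pool 2, the only alternative with a negative median of the members, it was -0.0015 against -0.0032 over all genes. The sign therefore rested on 1 pool, and no shared direction is stated. In bulk RNA, a smaller number of cells of one type and less RNA per cell cannot be told apart, and this holds for every result below.

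**Figure D1:**
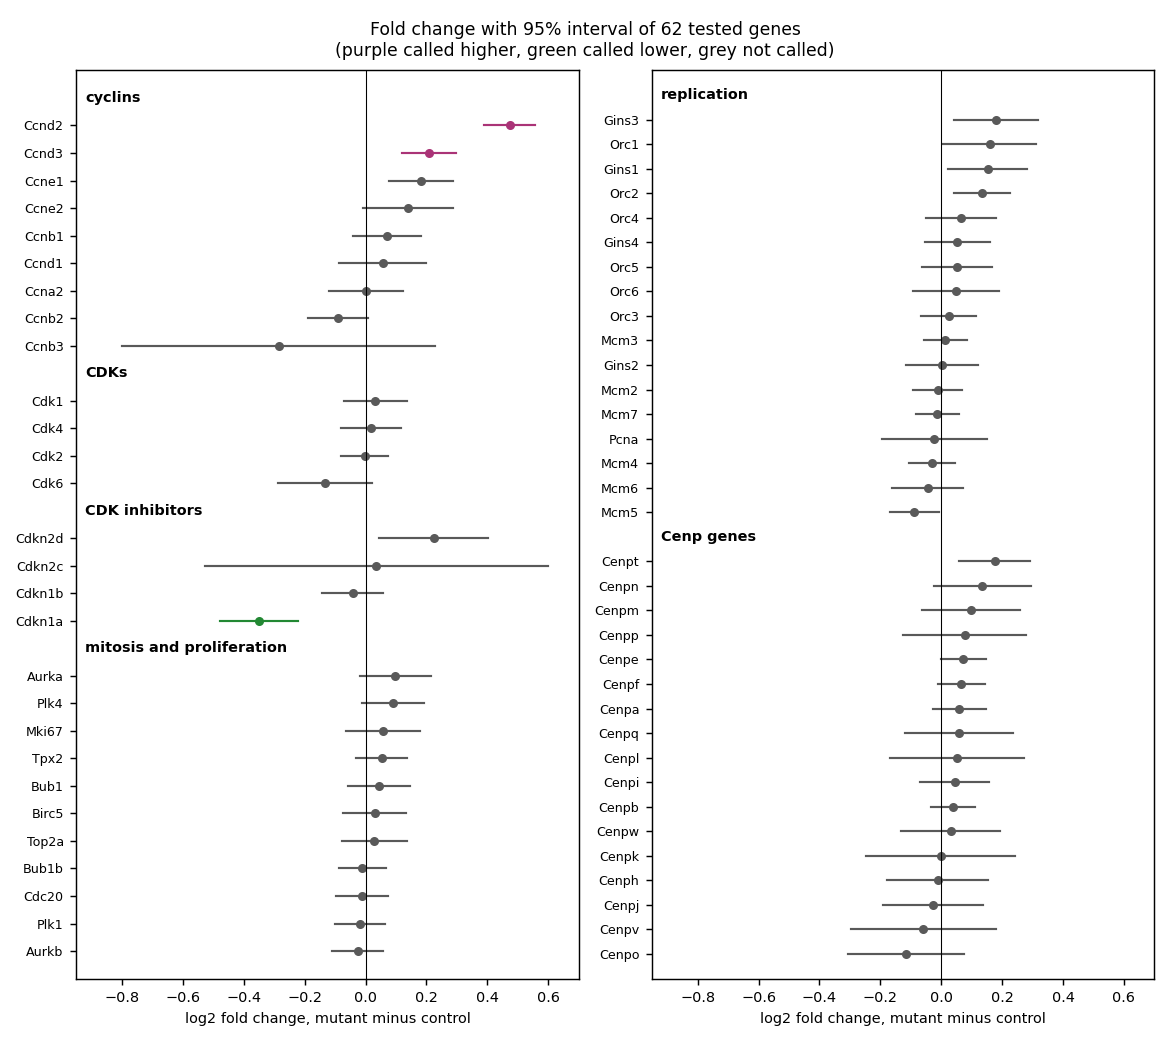
Log2 fold change (mutant minus control, horizontal axis) of the 62 tested cell cycle genes by role, with points for the edgeR estimate and lines for its 95% interval. Ccnd2 at 0.47, Ccnd3 at 0.21 and Cdkn1a at -0.35 were called, and the intervals of most other genes lie close to 0.

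Library depth was even, at 16060424 to 17633867 counted reads, so that 1 CPM, the unit of level used here (counts scaled to library size by TMM), stood for 15.9 to 17.5 reads. No pair of libraries agreed within sampling noise. Prox1 itself held 1764, 1687 and 1824 reads in the control pools and 1330, 1774 and 1602 reads in the mutant pools, with edgeR giving a log2 fold change of -0.17 (SE 0.074) at an adjusted p of 0.235. Since the removed part is not stated, these counts do not check the genotype labels. The pancreatic genes Pdx1 (50.4 ± 0.909 CPM, SD, n = 3), Ptf1a (20.3 ± 3.96 CPM) and Cpa1 (1268 ± 343 CPM) were present in controls. Control pool 3 and mutant pool 1 held 9 and 2 Xist reads where the other pools held 33297 to 47135. The Y chromosome gene Ddx3y held 1894 and 2018 reads in these 2 pools and 387 to 750 in the others. The pools therefore differed in the sex mix of their embryos, and results were also computed without control pool 3 and mutant pool 1.

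Promoters were read from RefSeq sequence on GRCm38.p6, taking the 250 bases before each annotated start, which was found for 55 of the 65 genes. They are shown because cell cycle genes are classically grouped by 3 promoter elements. These are the E2F site (TTTGGCGC, TTTCCCGC, TTTCGCGC or TTTGCCGC) of genes switched on before S phase, the cell cycle homology region or CHR (TTTGAA or TTCGAA), and the CCAAT box, the last being frequent in promoters of genes that peak in mitosis. All were searched on both strands, and an E2F word can share letters with a neighbouring one. An E2F word was found for 12 of the 55 genes (21.8%), against 2.16% of the 27025 genes with a window. A CHR word was found for 14 (25.5%), against 19.6%. A CCAAT box was found for 35 (63.6%), against 37.5%. Among the 10405 tested genes with a window these shares were 3.74%, 14.3% and 40.2%. Both a CHR word and a CCAAT box were present in 13 (23.6%), against 7.93%. Of the 13 replication genes with a window, 6 held an E2F word and 11 a CCAAT box. Of the 9 mitosis and proliferation genes, 4 held a CHR word and 7 a CCAAT box. A match is a description of the letters and not of binding.

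The D-type cyclins, which couple growth signals to the cell cycle, held the clearest difference. Ccnd2 (chromosome 6, 127125162 to 127152193, minus strand, GENCODE M21 on GRCm38) encodes the D-type cyclin that postnatal beta cell growth depends on. It stood at 529, 542 and 546 CPM in control pools 1 to 3 and at 736, 763 and 747 CPM in mutant pools 1 to 3. All mutant pools lay above all control pools, and the gap between the groups was many times the spread within either. The means were 539 ± 8.75 CPM (SD, n = 3) and 749 ± 13.8 CPM (SD, n = 3), a log2 fold change of 0.47 (SE 0.042, 95% interval 0.39 to 0.56, edgeR adjusted p = 0.00045). Across the 17 alternative analyses it lay between 0.45 and 0.49, and the call was kept in each of them.

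Ccnd3 (chromosome 17, 47505051 to 47599691, plus strand), the D-type cyclin prominent in blood cell precursors and differentiating tissues, moved the same way by less. Its level was 318, 335 and 305 CPM in control pools 1 to 3 and 358, 379 and 368 CPM in mutant pools 1 to 3. The groups did not overlap, though the lowest mutant pool lay only a little above the highest control pool. In log2 terms the change was 0.21 (SE 0.045, 95% interval 0.12 to 0.30, edgeR adjusted p = 0.0256). The call depended on single libraries: edgeR gave adjusted p = 0.0951 with control pool 1 left out, 0.0738 with control pool 3 left out, 0.106 with mutant pool 2 left out and 0.0788 with mutant pool 3 left out. With both pools low in Xist left out it gave 0.0953, while the log2 fold change stayed between 0.17 and 0.24 over the alternatives. GENCODE lists a processed pseudogene, Ccnd3-ps, and 361 of the 8775 exon bases of Ccnd3 overlap Bysl on the other strand. Bysl was not called, with 38.7 ± 0.891 CPM in control pools and 43.2 ± 1.38 CPM in mutant pools, also without overlap between the groups.

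Ccnd1, the D-type cyclin most directly induced by growth factors, was not called. It stood at 357, 422 and 423 CPM in control pools 1 to 3 and at 387, 434 and 428 CPM in mutant pools 1 to 3, so pool 1 was the lowest of each group. In log2 terms the change was 0.06 (SE 0.074, 95% interval -0.09 to 0.20, edgeR adjusted p = 0.753). Whether Ccnd1 differed from Ccnd2 in its response was not tested. Divided by exon length, Ccnd1 was the most abundant of the D-type cyclins in controls at 85.1 ± 8.12 CPM per kb, followed by Ccnd2 at 57.3 ± 0.93 and Ccnd3 at 36.4 ± 1.68 CPM per kb. In mutants Ccnd2 reached 79.6 ± 1.47 CPM per kb, next to 88.4 ± 5.51 for Ccnd1 and 42.0 ± 1.2 for Ccnd3. Ccnd2 thus made up 31.1% to 33.5% of the summed D-type cyclin level per kb in the control pools and 37.4% to 38.9% in the mutant pools. The share of Ccnd1 was 45.03% to 49.2% in controls and 40.8% to 42.9% in mutants. This split is described after the values of Ccnd2 were known and carries no test.

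The promoter of Ccnd3 is shown at its downstream annotated start, chr17:47593217-47593466 (plus strand), with its CCAAT box in capitals. The window before its other start site held none of these words.
Ccnd3: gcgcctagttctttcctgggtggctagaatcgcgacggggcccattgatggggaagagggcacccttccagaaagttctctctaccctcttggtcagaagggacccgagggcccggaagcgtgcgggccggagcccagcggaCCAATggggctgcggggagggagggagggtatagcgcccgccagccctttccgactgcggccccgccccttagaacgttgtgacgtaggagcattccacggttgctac

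**Figure D2:**
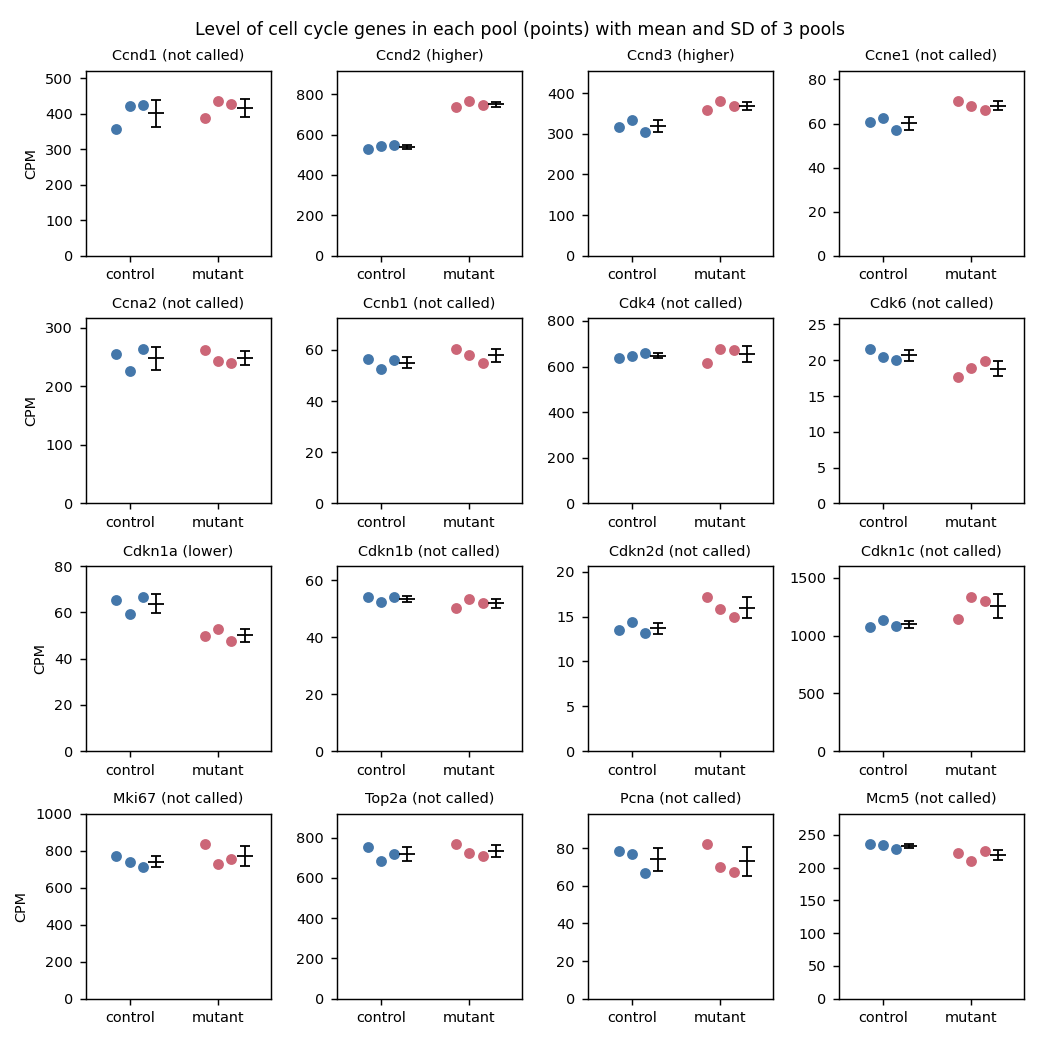
Level in CPM (vertical axes, from 0) of 16 cell cycle genes in the 3 control pools (blue) and 3 mutant pools (red), with the mean and SD of each group in black. Ccnd2 and Ccnd3 sit higher and Cdkn1a lower in every mutant pool, while Mki67, Top2a, Ccna2 and Pcna overlap between the groups. Cdkn1c is shown with them but belongs to a list of other regulators.

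The E-type cyclins, which activate Cdk2 at the entry into S phase, were not called. Ccne1 stood at 60.9, 62.5 and 56.9 CPM in control pools 1 to 3 and at 70.0, 68.1 and 66.2 CPM in mutant pools 1 to 3. Every mutant pool was above every control pool, yet the log2 fold change of 0.18 (SE 0.054) missed the threshold (edgeR adjusted p = 0.0817, 0.0535 to 0.386 over the alternatives). Ccne2 was 52.0 ± 5.39 CPM in control pools and 57.35 ± 1.133 CPM in mutant pools, with overlapping groups. Ccna2, the cyclin of S and G2 phase, was 248 ± 19.8 CPM in control pools and 248 ± 12 CPM in mutant pools, with a 95% interval of the log2 fold change from -0.12 to 0.12. The mitotic cyclin Ccnb1 had a log2 fold change of 0.07 (SE 0.057), and Ccnb2 had -0.09 (SE 0.05). Both have annotated pseudogenes, so their levels are uncertain. Ccnb3, a cyclin best known from meiosis, held 27 to 54 reads per library, with its highest value, 3.15 CPM, in control pool 3. Ccna1, the germ cell cyclin A, held fewer than 1 CPM in every pool and was not tested. In all, 2 of 9 tested cyclins were called higher and 0 lower by edgeR, where 3.67% of all genes were called higher. At an unadjusted p under 0.05 there were 3 higher and 0 lower, where 21.1% of all genes tested reached that level in either direction. The cyclins together summed to 1775 ± 40.1 CPM in control pools and 2059 ± 35.8 CPM in mutant pools, a ratio of 1.16 that includes the called Ccnd2 and Ccnd3.

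The promoter of Ccnb2, at chr9:70421555-70421804 (minus strand), is shown as an example of a mitotic cyclin, with 3 CCAAT boxes and 1 CHR word in capitals.
Ccnb2: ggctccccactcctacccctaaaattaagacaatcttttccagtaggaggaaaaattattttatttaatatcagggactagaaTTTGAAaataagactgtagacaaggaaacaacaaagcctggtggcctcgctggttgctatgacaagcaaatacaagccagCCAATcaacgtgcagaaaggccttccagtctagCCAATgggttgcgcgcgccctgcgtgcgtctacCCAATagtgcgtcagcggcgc

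By edgeR 0 of 4 CDKs were called, and 0 had an unadjusted p under 0.05, against 7.95% and 21.1% of all genes tested. Cdk4, a partner of the D-type cyclins, had the highest level per exon length of all 65 genes, at 199 ± 3.35 CPM per kb in controls and 202 ± 10.5 in mutants. In CPM it stood at 636, 647 and 658 in control pools 1 to 3 and at 616, 676 and 673 in mutant pools 1 to 3. Mutant pool 1 was the lowest and the other mutant pools were the highest, so the groups overlapped. The log2 fold change was 0.02, with a 95% interval from -0.08 to 0.12. Cdk6, the other partner of D-type cyclins, was scarce at 1.48 CPM per kb in controls. It stood at 21.5, 20.5 and 19.97 CPM in control pools 1 to 3 and at 17.7, 18.9 and 19.8 CPM in mutant pools 1 to 3, just below the controls without overlap. Its log2 difference, -0.13 (SE 0.079), missed the threshold (edgeR adjusted p = 0.387). Cdk2, the partner of cyclins E and A, was 114 ± 1.29 CPM in control pools and 114 ± 2.26 CPM in mutant pools. Cdk1, the mitotic kinase, was 188 ± 10.6 and 192 ± 8.13 CPM.

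The promoter of Cdk1, at chr10:69352913-69353162 (minus strand), held all of the elements, with 1 E2F word, 2 CHR words and 3 CCAAT boxes in capitals. It is shown because its gene stayed within narrow limits, with a 95% interval of the log2 fold change from -0.07 to 0.14.
Cdk1: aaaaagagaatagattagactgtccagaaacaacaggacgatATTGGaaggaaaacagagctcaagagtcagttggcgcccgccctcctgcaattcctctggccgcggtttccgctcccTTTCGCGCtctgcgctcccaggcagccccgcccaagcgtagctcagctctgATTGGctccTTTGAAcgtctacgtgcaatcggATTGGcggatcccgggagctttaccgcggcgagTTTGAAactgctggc

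Among the CDK inhibitors, Cdkn1a fell and the other tested members were not called. Cdkn1a (chromosome 17, 29090976 to 29100727, plus strand) encodes p21, a Cip/Kip protein that arrests the cycle after DNA damage and during differentiation. Its level was 65.5, 59.2 and 66.8 CPM in control pools 1 to 3, from 1097, 973 and 1143 reads. In mutant pools 1 to 3 it was 49.6, 52.9 and 47.6 CPM, from 790, 899 and 833 reads. All mutant pools lay below all control pools. The means were 63.8 ± 4.02 CPM (SD, n = 3) and 50.1 ± 2.67 CPM (SD, n = 3), a log2 fold change of -0.35 (SE 0.065, 95% interval -0.48 to -0.22, edgeR adjusted p = 0.0129). It was not called by edgeR with control pool 1 left out (adjusted p = 0.0604), with mutant pool 3 left out (0.0564) or with both pools low in Xist left out (0.0722), with the log2 fold change between -0.41 and -0.31 over the alternatives. The level per kb of Ccnd2 was 3.05 to 3.46 times that of Cdkn1a in the control pools and 5.45 to 5.92 times in the mutant pools. This describes 2 genes already called in opposite directions in these data, so the difference follows from those calls and carries no test.

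Cdkn1b, encoding p27, the other Cip/Kip member matched here, stood at 54.1, 52.2 and 53.9 CPM in control pools 1 to 3 and at 50.3, 53.5 and 51.8 CPM in mutant pools 1 to 3. The groups overlapped, and the 95% interval of its log2 fold change ran from -0.14 to 0.06. Of the Ink4 inhibitors, which bind Cdk4 and Cdk6, Cdkn2d was the most abundant. It stood at 13.54, 14.4 and 13.2 CPM in control pools 1 to 3 and at 17.2, 15.8 and 14.98 CPM in mutant pools 1 to 3, higher in each mutant pool. Its log2 difference, 0.22 (SE 0.091), missed the threshold (edgeR adjusted p = 0.198). Cdkn2c varied between 3.35 and 7.10 CPM without regard to group. Cdkn2a, the locus silenced in young dividing cells, had 0 to 2 reads per library, and Cdkn2b had 1 to 6. In all, 1 of 4 tested inhibitors was called lower, where 4.28% of all genes were called lower.

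The Cdkn1a promoters are shown because they differ in the elements they hold. The window before the upstream start, chr17:29090729-29090978 (plus strand), held a p53 consensus site with 1 mismatch in 20 bases, in capitals, beginning 51 bases before the start. Such a site was found in the windows of 25 of 27025 genes (0.0925%), in no other member, and in 1 of 19 genes on the list of p53 targets and quiescence genes. The window before the downstream start, chr17:29093519-29093768 (plus strand), held none of the elements. The count files give 1 value per gene, so reads from the start sites cannot be told apart.
Cdkn1a upstream start: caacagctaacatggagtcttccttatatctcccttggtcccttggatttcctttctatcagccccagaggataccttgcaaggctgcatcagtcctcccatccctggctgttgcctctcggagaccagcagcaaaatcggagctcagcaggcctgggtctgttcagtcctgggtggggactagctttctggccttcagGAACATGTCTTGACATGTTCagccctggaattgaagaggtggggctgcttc
Cdkn1a downstream start: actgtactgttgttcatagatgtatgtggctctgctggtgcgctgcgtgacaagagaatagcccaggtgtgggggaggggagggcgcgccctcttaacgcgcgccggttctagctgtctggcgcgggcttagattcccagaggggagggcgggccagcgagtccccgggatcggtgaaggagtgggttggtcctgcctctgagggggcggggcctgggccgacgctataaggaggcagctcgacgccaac

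By edgeR 0 of 17 replication genes were called, against 7.95% of all genes tested. At an unadjusted p under 0.05 there were 3 of 17, namely Orc2, Gins1 and Gins3, where 21.1% of all genes tested reached that level. All 3 estimates were above 0 and none was called. The Mcm2 to Mcm7 genes, which encode the ring of the replicative helicase, were abundant and flat, with log2 fold changes between -0.09 and 0.01. Mcm5 had the lowest of these values, with levels of 235, 235 and 229 CPM in control pools 1 to 3 and 223, 210.0 and 225 CPM in mutant pools 1 to 3. Its mutant pools lay just below the control pools, and the log2 difference, -0.09 (SE 0.041), missed the threshold (edgeR adjusted p = 0.258). Mcm6, the most abundant in CPM, was 387 ± 30.3 in controls and 376 ± 13.8 in mutants. Per exon length the Mcm genes ranged in controls from 39.0 CPM per kb for Mcm2 to 87.4 for Mcm4, a range that summed annotated exons of all transcripts can affect. Summed over the complex, the level was 1665 ± 29.7 CPM in control pools and 1632 ± 24.7 CPM in mutant pools.

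The origin recognition genes, which mark where replication can begin, had log2 fold changes from 0.02 for Orc3 to 0.16 for Orc1, and none was called. Orc1, the subunit whose hold on chromatin varies over the cycle, stood at 17.8, 17.9 and 16.9 CPM in control pools 1 to 3 and at 19.1, 20.7 and 18.9 CPM in mutant pools 1 to 3. Orc2 stood at 63.2, 63.0 and 64.3 CPM in control pools 1 to 3 and at 72.0, 68.4 and 68.8 CPM in mutant pools 1 to 3. Both were higher in each mutant pool, with adjusted p of 0.293 and 0.13 by edgeR. The Gins genes, which encode the activator of the helicase, had log2 fold changes from 0.00 for Gins2 to 0.18 for Gins3. Gins2 shares 2758 of its 4097 exon bases with Gse1 on the other strand, so its reads are less certain. Gins3 was 24.7 ± 0.949 CPM in control pools and 28.0 ± 1.65 CPM in mutant pools, and Gins1 was 21.9 ± 0.415 and 24.4 ± 0.827 CPM, in both cases without overlap. Pcna, the sliding clamp of the polymerases, was 74.1 ± 6.23 and 72.9 ± 7.91 CPM. GENCODE lists Pcna-ps1 and Pcna-ps2, so reads of Pcna may have been lost to copies and its level is uncertain.

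The promoter of Mcm6, at chr1:128359706-128359955 (minus strand), is shown as an example of an S phase gene, with 3 E2F words, of which 2 overlap, and 2 CCAAT boxes in capitals.
Mcm6: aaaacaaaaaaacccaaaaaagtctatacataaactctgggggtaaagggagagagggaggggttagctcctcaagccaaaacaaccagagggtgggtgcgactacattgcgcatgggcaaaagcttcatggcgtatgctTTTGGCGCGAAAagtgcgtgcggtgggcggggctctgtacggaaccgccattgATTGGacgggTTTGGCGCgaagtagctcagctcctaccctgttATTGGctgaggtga

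The Cenp genes, most of which encode parts of the centromere and inner kinetochore, were not called. By edgeR 0 of 17 passed the threshold, where 7.95% of all genes tested did. Cenpt was the only one with an unadjusted p under 0.05, a level reached by 21.1% of all genes tested. Cenpt, which links centromeric DNA to the outer kinetochore, stood at 32.0, 33.5 and 31.4 CPM in control pools 1 to 3 and at 35.1, 37.6 and 36.8 CPM in mutant pools 1 to 3. Each mutant pool was higher, and the mean difference was 0.18 in log2 terms (SE 0.06, edgeR adjusted p = 0.123). Cenpa, the histone that defines the centromere, was 78.9 ± 1.27 CPM in control pools and 82.2 ± 1.68 CPM in mutant pools, again without overlap, for a log2 fold change of 0.06 (SE 0.044). The groups also did not overlap for Cenpb, Cenpe and Cenpm, with log2 fold changes of 0.04, 0.07 and 0.10. Cenpe, a kinesin that moves chromosomes to the spindle equator, was 177 ± 4.54 CPM in control pools and 186 ± 0.364 CPM in mutant pools. Cenpf, a large protein of the outer kinetochore and the most abundant of these genes in CPM, was 215 ± 4.57 and 225 ± 6.28 CPM. Cenpo, a subunit of the inner kinetochore, was the lowest, with a log2 fold change of -0.12 (SE 0.098). It shares 1632 exon bases with genes on the other strand, so its reads are less certain. The median log2 fold change of the Cenp genes was 0.05, and their sum was 917 ± 13.9 CPM in control pools and 953 ± 11.8 CPM in mutant pools.

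The mitosis and proliferation genes showed no gene with separate groups. By edgeR 0 of 11 were called, 0 had an unadjusted p under 0.05, and in 0 of 11 did the groups separate. The shares over all genes tested were 7.95%, 21.1% and 26.4%. Mki67, the standard marker of cycling cells, stood at 774, 741 and 710.3 CPM in control pools 1 to 3 and at 834, 726 and 755 CPM in mutant pools 1 to 3. Mutant pool 1 was the highest and control pool 3 the lowest, and the other values interleaved. Its log2 fold change was 0.06, with a 95% interval from -0.06 to 0.18 (edgeR adjusted p = 0.676). Top2a, the topoisomerase that untangles chromosomes before division, stood at 754, 682 and 717 CPM in control pools 1 to 3 and at 766, 723 and 707 CPM in mutant pools 1 to 3, with an interval from -0.08 to 0.14. The log2 fold changes of the group ran from -0.03 for Aurkb, a kinase of the chromosomal passenger complex, to 0.10 for Aurka, a kinase of the spindle poles. Plk1, the polo kinase of mitotic entry, was at -0.02 (SE 0.042) and the checkpoint kinase gene Bub1b at -0.01 (SE 0.039). The 11 genes summed to 2517 ± 67 CPM in control pools and 2579 ± 104 CPM in mutant pools.

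Pools of 1 genotype also differed from each other across the members. Control pool 2 was the lowest of the 6 pools for 27 of the 62 tested genes (43.5%), and mutant pool 1 was the highest for 22 (35.5%). The first principal component of the 62 genes held 37.6% of their variance and placed control pool 2 at 0.80 and mutant pool 1 at -0.79, with the other pools between them. The genes were not scaled to equal variance, so scarce and variable genes weigh most in it. Cdkn2c alone, from 3.35 CPM in control pool 2 to 7.10 CPM in mutant pool 1, puts the 6 pools in the same order. The second component held 35.2% and placed the control pools between -0.85 and -0.08 and the mutant pools between 0.34 and 0.50. Over all genes tested, the first component held 52.4% and divided the groups. The median coefficient of variation between control pools was 3.91% for the members, against 5.64% for all tested genes with at least 10 CPM, the members being counted under the same minimum. Over the mutant pools these medians were 3.62% and 4.32%. Under that minimum the median level was still higher for the members, at 70.7 against 50.7 CPM, so the sets were not matched in level.

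**Figure D3:**
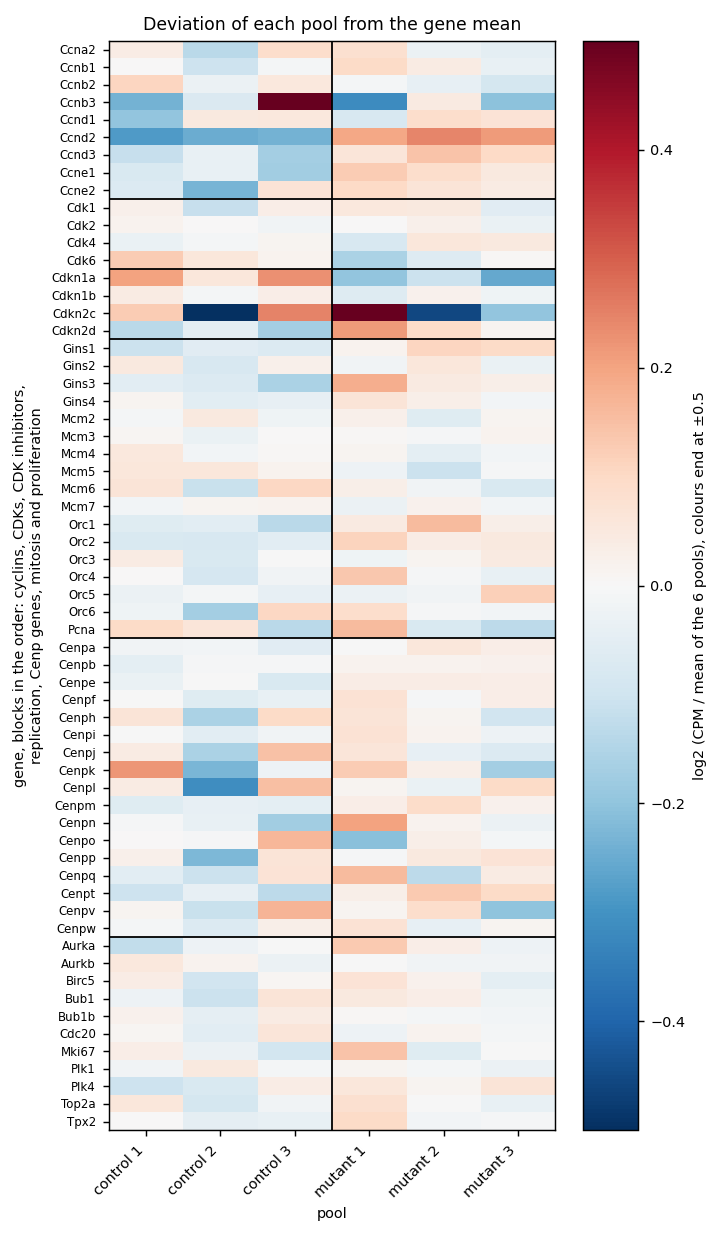
Each tested gene (rows, in blocks by role) in each of the 6 pools (columns), coloured by the log2 ratio of its CPM to the mean of the 6 pools, with colours ending at 0.5 in either direction. Ccnd2 and Cdkn1a change colour at the line between control and mutant pools, whereas the replication, Cenp and mitosis blocks are pale. Over all blocks, control pool 2 was lowest in 27 of the 62 genes.

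Other genes of the cell cycle, taken from 6 lists of regulators and machinery that exclude the members, were read the same way. Of 149 tested, edgeR called 2 higher and 1 lower (background 3.67% and 4.28%), and the median log2 fold change was 0.02. DESeq2 called 2 higher and 1 lower, with Cdkn1c in place of Kif23, and limma voom called 1 and 1. In the lists of licensing and firing factors (13 genes), replication fork and nucleotide supply (28), G1 to S regulators (20) and outer kinetochore and spindle checkpoint (26), edgeR called 0. Their counts at an unadjusted p under 0.05 were 0, 2, 1 and 0. The retinoblastoma, E2F and Myc genes are among these 20 regulators. Myc, a driver of growth and cycle entry, was 81.5 ± 7.04 CPM in control pools and 89.9 ± 2.12 CPM in mutant pools, and Mycn was 51.5 ± 4.43 and 54.0 ± 7.48 CPM. Neither was called.

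Cdkn1c, encoding the Cip/Kip protein p57, was the most abundant CDK inhibitor, at 537 CPM per kb in controls against 17.96 for Cdkn1a and 11.7 for Cdkn1b. It stood at 1073, 1136 and 1079 CPM in control pools 1 to 3 and at 1142, 1336 and 1296 CPM in mutant pools 1 to 3. Mutant pool 1 lay just above the controls and the others further up. The log2 difference, 0.20 (SE 0.064), missed the threshold (edgeR adjusted p = 0.105), and it was called by DESeq2 (adjusted p = 0.0166) and by edgeR without mutant pool 1 (0.0287) and without both pools low in Xist (0.0355).

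Among 40 genes of mitotic entry, spindle and exit, 1 was called higher by edgeR, where 3.67% of all genes tested were. Kif23, a kinesin needed for cytokinesis, stood at 133, 133 and 132 CPM in control pools 1 to 3 and at 147, 145 and 148 CPM in mutant pools 1 to 3, a small but even step. In log2 terms the change was 0.15 (SE 0.037, edgeR adjusted p = 0.0444). The call was lost in 11 of 17 alternatives, among them DESeq2 (0.0960), total-count scaling (0.0879) and each edgeR fit without 1 pool other than control pool 2 (0.118 to 0.141).

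Of 22 p53 targets and quiescence genes, 1 was called higher and 1 lower by edgeR, against 3.67% and 4.28% of all genes tested. Gadd45a, a stress-induced gene that restrains the cycle at G2, stood at 28.5, 29.9 and 34.2 CPM in control pools 1 to 3 and at 16.6, 19.4 and 18.2 CPM in mutant pools 1 to 3. Every mutant pool was lower, and the difference was larger in size than that of Ccnd2. In log2 terms the change was -0.77 (SE 0.092, edgeR adjusted p = 0.00158), and the call was kept in all 17 alternatives. Plk2, a polo-like kinase of G1, stood at 257, 223 and 262 CPM in control pools 1 to 3 and at 290.1, 338 and 302 CPM in mutant pools 1 to 3. The log2 difference was 0.33 (SE 0.074, edgeR adjusted p = 0.0304). Plk2 was not called by edgeR with control pool 1 left out (adjusted p = 0.0738), with mutant pool 2 left out (0.103), with mutant pool 3 left out (0.0688) or with the replicate number as a block (0.0579). The p53 gene Trp53 and its targets Mdm2 and Ccng1 were not called, at -0.04 (SE 0.053), 0.00 (SE 0.053) and -0.08 (SE 0.081).

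**Figure D4:**
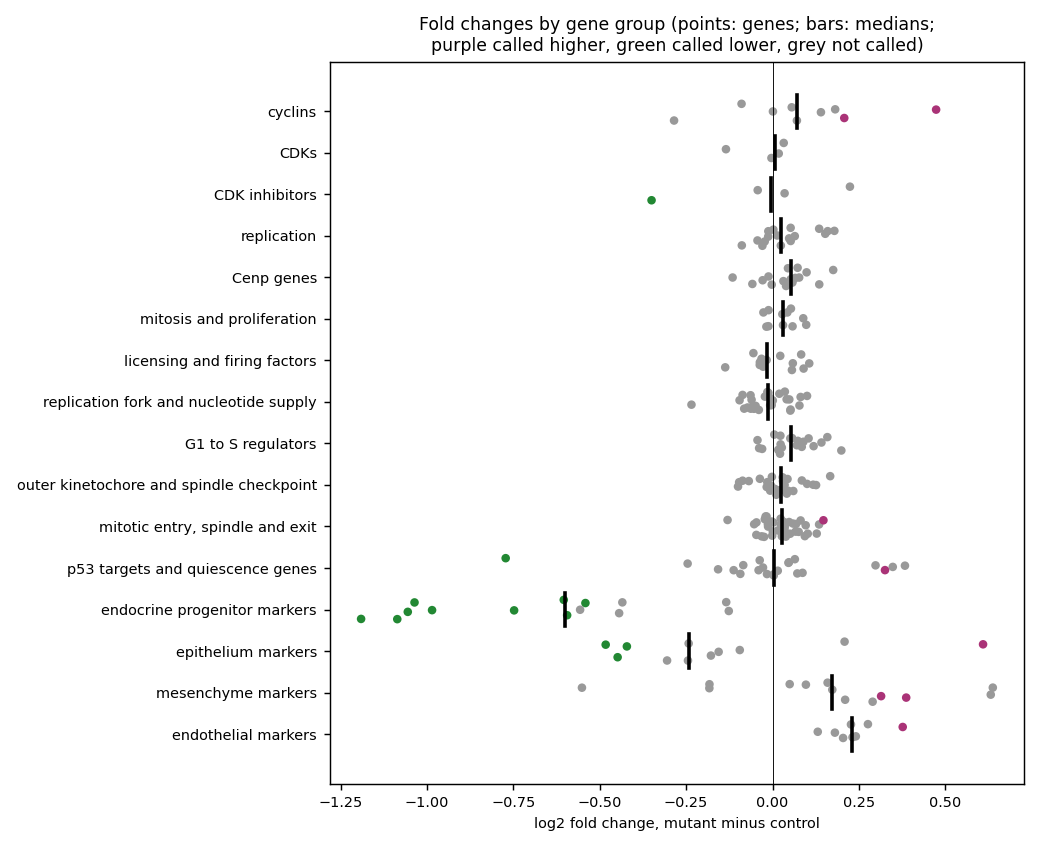
Log2 fold change (mutant minus control) of the tested genes in each role of the cell cycle genes, in the 6 lists of other cell cycle genes and in 4 lists of cell type markers, with 1 point per gene, bars for medians and colours for edgeR calls. The cell cycle lists have medians between -0.02 and 0.07, while endocrine progenitor markers have a median of -0.60. In cell type lists not drawn, medians were 1.21 (erythroid), 0.52 (myeloid), 0.42 (acinar) and -0.88 (neuron and neural crest).

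Markers of several cell types differed between the groups, and they stand beside the results for Ccnd2, Ccnd3, Cdkn1a and Gadd45a. The counts below are to be read against all genes tested, of which edgeR called 3.67% higher and 4.28% lower. Of 14 endocrine progenitor markers, 9 were called lower by edgeR and 0 higher, and their summed level was 762 to 1055 CPM in control pools and 587 to 701 CPM in mutant pools. Of 13 mesenchyme markers, 2 were called higher and 0 lower. Their log2 fold changes were above 0 for 10 and below 0 for 3, the lowest at -0.55. All mutant pools lay above all control pools for 6 of the 13, and below for 2. The 13 summed to 9298 to 9603 CPM in controls and 10342 to 11798 CPM in mutants, where abundant genes weigh most. Of 8 endothelial markers, 1 was called higher, with sums of 599 to 677 and 678 to 867 CPM. Of 11 epithelium markers, 3 were called lower and 1 higher, with sums of 1876 to 2219 and 1642 to 1817 CPM. Of 14 erythroid markers, 8 were called higher, with overlapping sums of 1728 to 2594 and 2021 to 2733 CPM. Of 10 myeloid markers, 3 were called higher, and the sums were 206 to 247 and 233 to 305 CPM. Of 10 neuron and neural crest markers, 5 were called lower, and the sums were 163 to 230 and 124 to 143 CPM. Of 11 acinar markers, 3 were called higher and 1 lower, and the sums overlapped. No marker of these lists was at 0 in any pool. Their part in the changes of the cell cycle genes was not tested.

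Read assignment bears on some of the values. Exons of 23 of the 65 genes overlap a gene on the other strand, and the strand setting of the counts is not given in the sources used here, so reads of such pairs cannot be told apart. For Ccnd2 the overlap is 740 of 9409 exon bases, with 2 genes, Gm43126 and 9330179D12Rik. No value was analysed here for Gm43126, and 9330179D12Rik was at 0.338 ± 0.0884 CPM in control pools and 0.42 ± 0.117 CPM in mutant pools. For Cdkn1a it is 273 of 3553 exon bases, for Ccnd1 1100 of 4709 and for Cdk4 641 of 3249. It is larger for Gins2, at 2758 of 4097, and for Orc2, at 1150 of 3857. Of the other genes named here, Cdkn1c shares 625 of 2039 exon bases with Gm44732, and Gadd45a shares 337 of 1764 with E230016M11Rik.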

How the data were processed

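mRNA of 3 control and 3 mutant pools was sequenced, with 16060424 to 17633867 counted reads per library. The deposited values are whole-number read counts per gene symbol, not normalized. The submitters' processing notes name cutadapt 1.13, STAR, HTSeq 0.6.1p1, DESeq2 and build mm10, without roles. Which annotation, strand setting and multi-mapping rule were used is not given in the sources used here.

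Counts were tested with edgeR 4.0.16 in R 4.3.3 (filterByExpr with a minimum count of 10, TMM scaling, quasi-likelihood F test, genotype as the only term), with Benjamini-Hochberg adjustment over 14687 genes. CPM are counts scaled to the library total times its TMM factor. Each SE was taken from the log2 fold change and its F statistic, and 95% intervals assume normal errors. CPM per kb divide by summed GENCODE M21 exon length. Alternatives were other scalings and filters, robust estimation, DESeq2 1.42.0, limma 3.58.1 voom, removal of erythroid genes, a replicate block and omitted libraries. Counts were also simulated for this comparison (14576 genes). The test recovered 42 of 80 genes changed by 0.5 log2 (52.5%), 47 of 57 at 1 (82.5%) and 59 of 59 at 2 (100%). A further 14 calls were false. The estimates of all 62 tested members were below 0.5 log2 in size, so these shares do not cover them.

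The members and lists were chosen with earlier results of these data known. Named were called members, members without overlap between groups, the 5 highest and 5 lowest log2 fold changes, the most abundant gene per role, a fixed set of cyclins, CDKs and inhibitors, and up to 3 called genes per neighbouring list and direction. Others (among them Plk1, Bub1b, Aurka and Aurkb) were chosen after their values were seen. In the lists, 1 outer kinetochore gene asked for was not matched.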

Additional observations from a re-analysis of the deposited data

How the results depend on the processing

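Over the 17 alternatives, Ccnd2 was called in all, and DESeq2, limma voom, robust estimation, the other scalings and filters, removal of erythroid genes and the replicate block each called the same 3 members. Leaving out 1 library gave 1 to 2 members higher, 0 to 1 lower, 0 to 2 neighbouring genes higher, 1 to 2 lower, and 629 to 1421 of all genes called, against 1167. The counts fell to 1 member higher without control pool 1, control pool 3, mutant pool 2 or mutant pool 3, and to 0 lower without control pool 1 or mutant pool 3. Without control pool 3 and mutant pool 1 together, 1 member was called higher, 0 lower and 665 genes in all. Neighbouring genes called higher numbered 1 with total-count scaling, 1 with no filter on low counts, 1 with limma voom and 0 with the replicate block. Without control pool 2 the members split into 31 above and 32 below 0. The replicate numbers did not pair the pools: same-numbered pools correlated at 0.138, 0.101 and -0.0497 in their deviations, and not every pool correlated best with its own number. With the replicate block, 2 members were called higher, 1 lower and 1138 genes in all. Depth limits the scarce members, since 1 CPM is 15.9 to 17.5 reads.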
